A study of Mus musculus with 6 samples.

Results

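The insulin-like growth factor (IGF) system was examined through 10 genes, chosen by name: the ligands *Igf1* and *Igf2*, the receptors *Igf1r* and *Igf2r*, and 6 IGF binding protein (IGFBP) genes, *Igfbp2* to *Igfbp7*. Of the 10, 7 were found among the 48733 named genes of the deposited tables. The other 3, *Igf1*, *Igf1r* and *Igfbp4*, carried no name there, and each was read from the unnamed feature on the same strand that covered at least 80% of its RefSeq span and no other protein-coding gene. Their values are those of the features, given here under the gene symbols. All 10 had a mean of at least 1 FPKM (fragments per kilobase of transcript, scaled to the aligned fragments of the library) over the 6 libraries, which was the minimum for testing.

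RNA-seq libraries were made from the inbred Collaborative Cross strain CC016/GeniUnc. The labels give 3 libraries of cortical femoral bone from which the marrow had been spun out (bone 1 to 3), and 3 of osteoblasts grown from marrow stromal cells (osteoblasts 1 to 3). By the protocol, the cultures received ascorbic acid (50 µg/ml), beta-glycerophosphate (10 mM) and dexamethasone (10 nM) for 8 days, and all mice shared the strain, with no other allele or treatment given. The labels give neither age nor sex. The methods give 3 mice as the source of femora and then of marrow, without saying which gave which library. Bone and osteoblasts thus appear to share mice, while the main tests treat the libraries as independent. Their p-values measure the spread between these libraries.

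The libraries did not sort by their labels. *Hbb-bt*, a beta-globin gene of red cells, measured 34838 FPKM in bone 3, 34268 FPKM in osteoblasts 2 and 48650 FPKM in osteoblasts 3, and at most 7.05 FPKM in the other 3. These are called here the libraries above and below 1000 FPKM of *Hbb-bt*, a description of measured values and not a group of the study, so no mean or test is given across it. Neutrophil markers (9 of 10 genes found) summed to 14433 to 17465 FPKM in the libraries above and 2.60 to 10.2 FPKM in those below, skeletal muscle markers (5 of 8) to 316 to 1315 FPKM against 0.0860 to 1.14 FPKM, and endothelial markers (4 of 4) to 31.8 to 43.9 FPKM against 0.273 to 4.93 FPKM. Markers of cultured stroma and fibroblasts (8 of 8) ran the other way, at 408 to 609 FPKM above and 2399 to 4052 FPKM below, as did macrophage markers (6 of 6), at 403 to 533 FPKM against 1397 to 2762 FPKM. Markers of dividing cells (4 of 5) were higher above the threshold, at 118 to 142 FPKM against 13.3 to 30.0 FPKM, and adipocyte markers (5 of 5) overlapped, at 114 to 153 FPKM against 27.4 to 161 FPKM. Below the threshold *Elane* of neutrophils and *Pvalb* and *Tnnt3* of muscle were at 0 in all 3 libraries, and above it no gene of the neutrophil or muscle lists was at 0. Osteoblast markers (7 of 9 found) were present in all 6 libraries, at a sum of 5258 to 8488 FPKM. Single genes of this list differed. *Ibsp* (43.1 to 91.3 FPKM above against 986 to 1278 FPKM below) and *Alpl* (66.0 to 94.1 against 95.4 to 204.7 FPKM) were lower above the threshold. *Bglap2* was higher above it, at 1641 to 1959 against 264 to 513 FPKM, and the others overlapped. Osteocyte markers (5 of 6) summed to 48.2 to 53.5 FPKM above the threshold and 57.1 to 134.7 FPKM below it. Within this list *Sost*, a gene of mature osteocytes, measured 15.8 to 22.7 FPKM in the libraries above 1000 FPKM of *Hbb-bt* and at most 0.198 FPKM below. *Dmp1* ran the other way, at 22.5 to 24.2 FPKM above and 50.0 to 126.6 FPKM below. The other osteocyte genes found overlapped. Blood, muscle and *Sost* thus went against the labels, being high in 1 library labelled bone and 2 labelled osteoblasts. Whether labels were exchanged was not tested, no library was moved, and each value, mean and test for bone or osteoblasts refers to libraries as labelled. The part of these other cells in the results that follow was not tested. In bulk RNA, fewer cells of a type and less RNA per cell cannot be told apart. Features with no name took 71.5% of the FPKM in bone 2 and 65.0% in osteoblasts 1, against 27.4 to 30.7% in the others, so values in those 2 libraries are low on the FPKM scale. Aligned depth was 13566667 to 22586667 read pairs, so that a 1 kb transcript with 3 read pairs would have 0.133 to 0.221 FPKM, a floor for counting error only.

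IGF-I and IGF-II are small secreted hormones that signal growth and survival through the tyrosine kinase receptor encoded by *Igf1r*. The product of *Igf2r* has no kinase and carries IGF-II to the lysosome. The IGFBPs bind the ligands in the extracellular space, where they can hold them from the receptor or deliver them to matrix and cells. Bone is rich in stored IGF, and cells of the osteoblast lineage are known to secrete both ligands and several IGFBPs.

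The sequences 5′ of the start sites were described by short motifs, and likeness between the members' promoters was not measured. RefSeq (GRCm38.p6) gave 14 start sites for the 10 members, all of which matched. In the 150 bases before each, both strands were searched for the GC box GGGCGG and the TATA box TATAAA. The motif CCAAT was searched as well. The last motif, AGAACA, is the core of glucocorticoid receptor sites and was searched because the medium held dexamethasone. GGGCGG was found before 6 of the 14 start sites, in 5 members, against 28.6% of 32851 RefSeq promoters. TATAAA was found in 2 members (7.57% of all promoters), CCAAT in 2 (24.5%) and AGAACA in 1, at the first start site of *Igf2* (9.62%). Both receptors, a ligand and 3 IGFBPs are printed below 5′ to 3′ in the direction of the gene, with these motifs on either strand in capitals, adjoining copies in *Igf2r* running together. A match is a description of the letters and not of binding.
*Igf1r*, chr7:67952107-67952256, plus strand: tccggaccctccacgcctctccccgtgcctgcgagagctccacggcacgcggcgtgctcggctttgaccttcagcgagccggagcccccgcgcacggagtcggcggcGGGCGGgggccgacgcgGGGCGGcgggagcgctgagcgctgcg
*Igf2r*, chr17:12769707-12769856, minus strand: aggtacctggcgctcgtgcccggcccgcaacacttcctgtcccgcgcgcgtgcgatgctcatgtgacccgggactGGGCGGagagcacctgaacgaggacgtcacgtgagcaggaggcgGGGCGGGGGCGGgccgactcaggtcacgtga
*Igf1*, chr10:87860961-87861110, plus strand: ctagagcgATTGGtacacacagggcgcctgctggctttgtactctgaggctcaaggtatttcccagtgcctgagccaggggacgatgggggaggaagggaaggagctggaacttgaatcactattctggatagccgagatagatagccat
*Igfbp4*, chr11:99041094-99041243, plus strand: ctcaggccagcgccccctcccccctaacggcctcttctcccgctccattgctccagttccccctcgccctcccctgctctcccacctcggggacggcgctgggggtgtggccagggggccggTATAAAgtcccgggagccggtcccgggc
*Igfbp5*, chr1:72874866-72875015, minus strand: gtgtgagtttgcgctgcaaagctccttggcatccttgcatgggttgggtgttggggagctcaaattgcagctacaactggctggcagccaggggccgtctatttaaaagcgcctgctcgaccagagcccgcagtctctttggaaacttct
*Igfbp6*, chr15:102144036-102144185, plus strand: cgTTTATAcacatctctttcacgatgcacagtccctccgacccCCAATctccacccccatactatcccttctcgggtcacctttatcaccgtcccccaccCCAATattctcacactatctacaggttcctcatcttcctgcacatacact

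The receptors carry only GC boxes, at 2 places in *Igf1r* and 3 in *Igf2r*, and their windows were 78.7% and 70.7% G or C. *Igfbp4* has TATAAA 28 bases before its start. The window of *Igfbp5* holds none of the 4 motifs. The start sites of *Igfbp6*, *Igf1* and *Igf1r* lie away from the ends of the deposited features. They lie 176 bases before the start for *Igfbp6*, and 2846 and 382 bases inside it for *Igf1* and *Igf1r*. These windows need not be the start used here. The start site of *Igf2r* lies 26157 bases inside its feature, which runs on past the RefSeq gene.

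*Igf1*, the main IGF of postnatal growth, lies on the plus strand of Chr. 10 (feature 87858265 to 87937042, GRCm38). It measured 53.6, 29.4 and 5.09 FPKM in bone 1, 2 and 3, and 33.3, 4.59 and 6.47 FPKM in osteoblasts 1, 2 and 3. Each label thus held both high and low libraries, and the 3 low values were those of the libraries above 1000 FPKM of *Hbb-bt*. Its antisense gene *Igf1os* reached at most 0.185 FPKM. The kit did not keep strand, so reads where such genes overlap cannot be told apart. *Igf2*, the imprinted fetal growth factor on the minus strand of Chr. 7 (142650766 to 142666816), measured 18.6, 5.24 and 1.29 FPKM in bone 1 to 3 and 9.98, 1.01 and 1.85 FPKM in osteoblasts 1 to 3. It was low in the same 3 libraries, and both ligands stayed so after scaling to the sum of named genes. On that scale *Igf1* came to 55.0, 50.4 and 52.1 in bone 1, bone 2 and osteoblasts 1, and to 3.54, 3.25 and 4.79 in bone 3, osteoblasts 2 and osteoblasts 3. On the FPKM scale the highest value was 11.7 times the lowest for *Igf1* and 18.4 times for *Igf2*.

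Among genes with a mean of at least 1 FPKM, *Igf1* ranked above 92.2 to 93.2% in the libraries below 1000 FPKM of *Hbb-bt* and above 37.6 to 47.3% in the others. *Igf2* ranked above 60.4 to 76.4% in the former and above 5.37 to 11.8% in the latter. Despite these shifts the ratio of *Igf1* to *Igf2* within a library ranged only from 2.88 (bone 1) to 5.62 (bone 2), and *Igf1* made up 74.2 to 84.9% of the ligand FPKM in all 6 libraries. On mean coverage, the other deposited measure, the ratio was lower, at 1.7 to 4.90. *Igf1* was therefore the more abundant ligand transcript in each library by either measure.

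**Figure D1:**
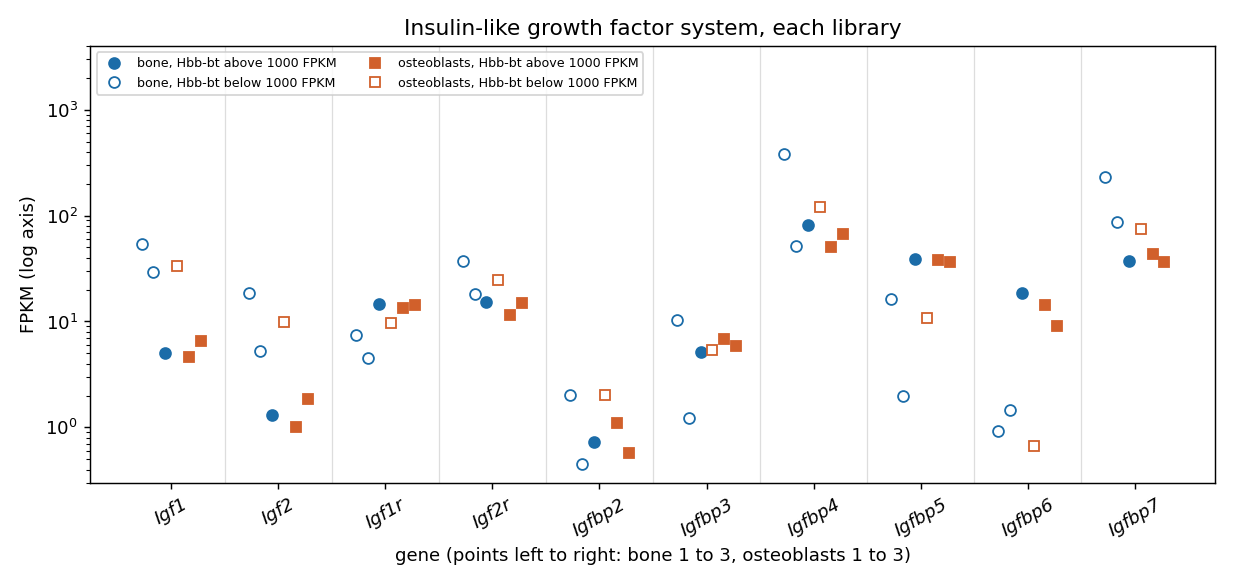
FPKM of the 10 genes on a log axis, with a point for each library, circles for bone and squares for osteoblasts, filled where *Hbb-bt* was above 1000 FPKM. *Igf1* and *Igf2* are lower in the 3 filled libraries (4.59 to 6.47 and 1.01 to 1.85 FPKM), while *Igfbp5* and *Igfbp6* are higher (36.7 to 38.7 and 9.01 to 18.6 FPKM).

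*Igf1r*, the signalling receptor, lies on the plus strand of Chr. 7 (feature 67951875 to 68233668) and measured 7.49, 4.49 and 14.6 FPKM in bone 1 to 3 and 9.58, 13.4 and 14.2 FPKM in osteoblasts 1 to 3. It was higher in the libraries above 1000 FPKM of *Hbb-bt*, the opposite of its ligands. With FPKM scaled to the sum of named genes this no longer held, as osteoblasts 1 then had the highest value (15.0, against 7.67 to 10.5 in the other 5), and it did not hold on coverage per Gb of aligned bases either. *Igf2r*, the clearance receptor, is on the minus strand of Chr. 17 (12682406 to 12795863) and measured 37.3, 18.2 and 15.2 FPKM in bone 1 to 3 and 24.7, 11.6 and 14.9 FPKM in osteoblasts 1 to 3. Its values were lower in the libraries above the threshold, from 11.6 to 15.2 FPKM against 18.2 to 37.3 FPKM. The scaling to named genes widened this gap, to 8.23 to 11.0 against 31.2 to 38.5. *Airn*, the antisense RNA that overlaps *Igf2r*, measured 3.51 to 6.41 FPKM above the threshold and 0.626 to 2.23 FPKM below it.

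A ratio within a library does not depend on scaling. *Igf1r* to *Igf2r* was 0.201, 0.247 and 0.958 in bone 1 to 3 and 0.389, 1.15 and 0.951 in osteoblasts 1 to 3, so the receptors were near parity in the 3 libraries above 1000 FPKM of *Hbb-bt* and *Igf2r* predominated in the rest. As a share of the receptor FPKM, *Igf2r* made up 46.5 to 51.3% in the former and 72.0 to 83.3% in the latter. On coverage the shares were 52.9 to 58.1% and 69.5 to 81.5%.

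*Igfbp4*, whose product is an inhibitor of IGF action that the protease PAPP-A cleaves, lies on the plus strand of Chr. 11 (feature 99041244 to 99054392). It measured 383 FPKM in bone 1, 51.2 FPKM in bone 2 and 80.8 FPKM in bone 3, and 119.8, 50.1 and 67.1 FPKM in osteoblasts 1 to 3. Bone 1 stood above the other 5 libraries, among which the values overlapped across *Hbb-bt*. *Igfbp7*, a relative that binds IGFs with low affinity and is common in vessels and stroma, is on the minus strand of Chr. 5 (77349240 to 77408041) and shares its end with *Polr2b*. It measured 229 FPKM in bone 1, 86.7 FPKM in bone 2 and 37.6 FPKM in bone 3, and 74.8, 43.3 and 36.5 FPKM in osteoblasts 1 to 3. Its values were lower in the libraries above 1000 FPKM of *Hbb-bt*. Markers of cultured stroma and fibroblasts were lower in these libraries and endothelial markers higher, and their part in the result was not tested. After scaling to named genes *Igfbp4* was separated too, at 35.5 to 56.2 above the threshold and 87.7 to 393 below it.

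*Igfbp5*, whose product binds bone mineral and matrix, is on the minus strand of Chr. 1 (72857932 to 72874884). It measured 16.4, 1.97 and 38.7 FPKM in bone 1 to 3 and 10.7, 38.0 and 36.7 FPKM in osteoblasts 1 to 3. The 3 libraries above the threshold agreed closely, between 36.7 and 38.7 FPKM, and bone 2 was the lowest. *Igfbp6*, which prefers IGF-II, is on the plus strand of Chr. 15 (102144362 to 102149511) and measured 0.924, 1.45 and 18.6 FPKM in bone 1 to 3 and 0.664, 14.3 and 9.01 FPKM in osteoblasts 1 to 3. Its highest value was 28.0 times its lowest, the widest range of the 10 genes on this scale, while after scaling to named genes *Igf2* had the widest (26.6 times, and 13.7 times for *Igfbp6*). Both genes kept this separation on each scale tried (TPM, scaling to named genes or to the 75th percentile, and coverage per Gb).

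*Igfbp3*, the main carrier of IGF in serum, is on the minus strand of Chr. 11 (7206086 to 7213923) and measured 10.3, 1.23 and 5.17 FPKM in bone 1 to 3 and 5.41, 6.8 and 5.91 FPKM in osteoblasts 1 to 3. By FPKM osteoblasts 1 lay with the libraries above 1000 FPKM of *Hbb-bt*, within 5.17 to 6.8 FPKM, with bone 1 above and bone 2 below this range. Scaled to named genes, osteoblasts 1 was at 8.45, against 3.60 to 4.81 in the libraries above the threshold. Bone 1 and bone 2 were at 10.6 and 2.11 on that scale, so the values still overlapped. *Igfbp2*, on the plus strand of Chr. 1 (72824503 to 72852474), measured 2.02, 0.448 and 0.730 FPKM in bone 1 to 3 and 2.02, 1.11 and 0.571 FPKM in osteoblasts 1 to 3. Its mean coverage was at most 0.253 reads per base, so these low values rest on few reads and show no order of the libraries.

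The 6 IGFBP genes summed to 642 FPKM in bone 1 and to 143 to 213 FPKM in the other 5 libraries. By FPKM *Igfbp4* and *Igfbp7* together held most of this sum in each. *Igfbp5* made up 2.55%, 1.38% and 5.02% of it in bone 1, bone 2 and osteoblasts 1, and 21.3%, 24.7% and 23.6% in bone 3, osteoblasts 2 and osteoblasts 3. *Igfbp6* made up 0.144 to 1.01% in the first 3 and 5.78 to 10.2% in the last 3. The ratio of *Igfbp4* to *Igfbp5* was 11.2 to 26.0 in the former and 1.32 to 2.09 in the latter by FPKM, whereas on coverage it was 4.34 to 8.09 and 0.419 to 0.744, so that in the last 3 libraries the more abundant of the pair depended on the measure.

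Levels of different genes depended on the measure. For a feature with a single transcript, coverage per Gb equals FPKM, which was so for *Igfbp5* (16.4 by both in bone 1) and *Igfbp6*, but *Igfbp4* had 104 on coverage per Gb against 383 FPKM there, and *Igf1* 14.2 against 53.6. By FPKM *Igfbp4* was the highest of the 10 genes in each library but bone 2, where *Igfbp7* was. By coverage *Igfbp7* was the highest IGFBP in bone 1, bone 2, osteoblasts 1 and osteoblasts 2, and *Igfbp5* in bone 3 and osteoblasts 3. On that measure *Igfbp5* made up 1.96 to 8.17% of the IGFBP sum in the libraries below 1000 FPKM of *Hbb-bt* and 31.4 to 33.5% in those above.

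**Figure D2:**
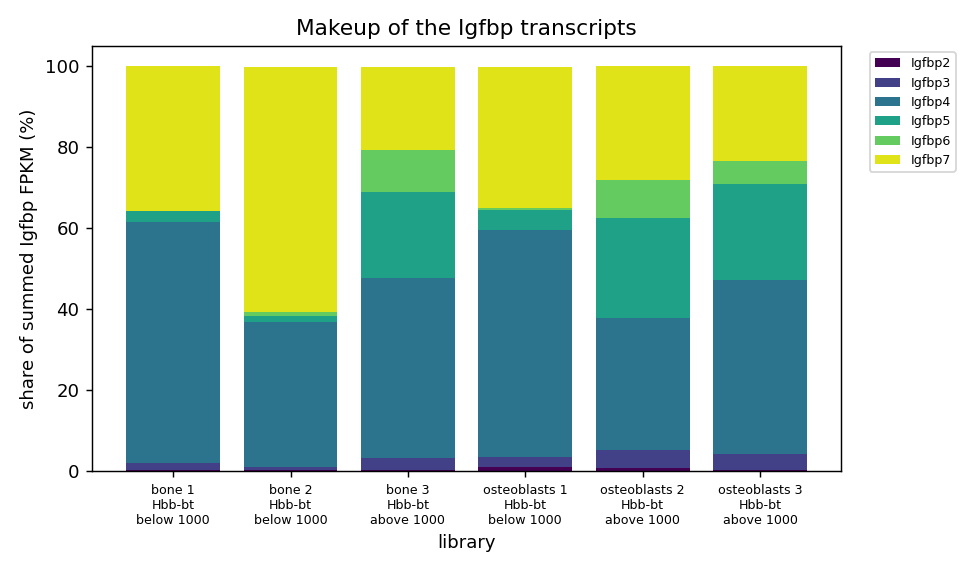
Share of each *Igfbp* gene in the summed FPKM of the 6 genes, as stacked bars for each library. *Igfbp5* and *Igfbp6* take 21.3 to 24.7% and 5.78 to 10.2% in bone 3, osteoblasts 2 and osteoblasts 3, and at most 5.02% and 1.01% in the other 3.

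The ligands together were 0.113, 0.242 and 0.0352 of the IGFBP sum in bone 1 to 3 and 0.203, 0.0365 and 0.0534 in osteoblasts 1 to 3. By FPKM the 3 ratios below 0.1 were those of the libraries above 1000 FPKM of *Hbb-bt*. On coverage each ratio was lower, at 0.00933 to 0.0154 in these libraries and 0.0603, 0.105 and 0.0917 in bone 1, bone 2 and osteoblasts 1, with the same separation. There the ligand FPKM summed to 5.61 to 8.33, against 34.7 to 72.3 in the libraries below, whereas the IGFBP sums overlapped (154 to 182 against 143 to 642 FPKM).

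**Figure D3:**
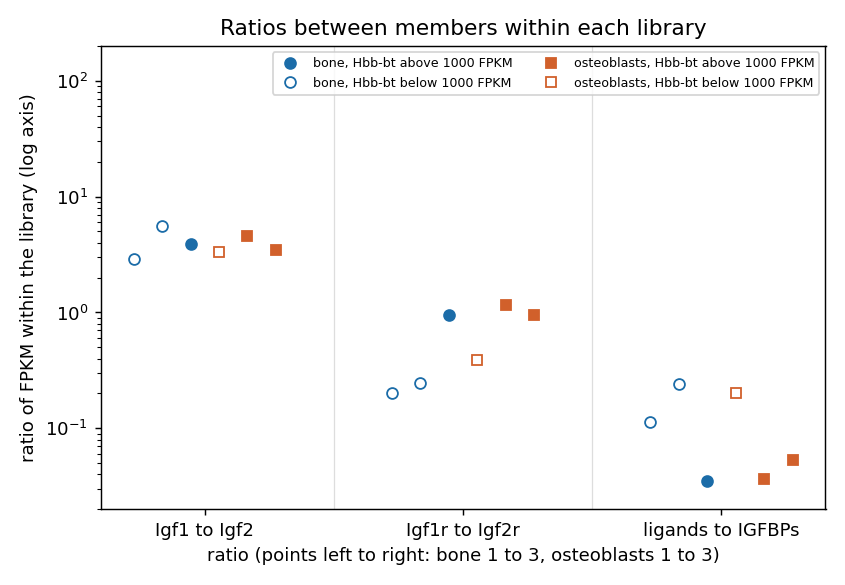
Ratio of FPKM within each library on a log axis, with circles for bone and squares for osteoblasts, filled where *Hbb-bt* was above 1000 FPKM. *Igf1* to *Igf2* stays within 2.88 to 5.62, while *Igf1r* to *Igf2r* is 0.951 to 1.15 and ligands to IGFBPs 0.0352 to 0.0534 in the filled libraries.

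Of the 10 genes, 3 had all values higher in the libraries above 1000 FPKM of *Hbb-bt* (*Igf1r*, *Igfbp5* and *Igfbp6*), against 38.4% of all 12122 genes tested. Another 4 had all values lower (*Igf1*, *Igf2*, *Igf2r* and *Igfbp7*), against 16.9%. After scaling to named genes the counts were 2 higher and 5 lower, against 21.3% and 48.6% of all genes. Separation along *Hbb-bt* was thus common in these libraries and is not particular to the IGF genes, and the share of genes in each direction turned on the scaling.

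The study profiled bone and osteoblasts to see whether genes of its locus were expressed in them, and it states no test between them. The comparison of the labels was made here. Blood and muscle markers went against the labels. The results here thus compare the libraries labelled osteoblasts with those labelled bone and are no measure of likeness between the tissues. No member separated by label, with values that overlapped for 10 of 10 genes, and 0.916% of all genes tested had values that did not overlap. In limma on log2(FPKM + 1), 0 of the 10 members passed a Benjamini-Hochberg adjusted p of 0.05, as did 0% of the 12122 genes, of which 17 had an unadjusted p under 0.05. *Igf1* was 29.4 ± 24.3 FPKM in bone and 14.8 ± 16.1 FPKM in osteoblasts (SD, n = 3 each), a difference of -0.94 on the log2 scale (SE 0.92, limma adjusted p = 0.999). *Igfbp5* was 19.03 ± 18.5 and 28.5 ± 15.4 FPKM, with the largest difference among the members, 1.02 (SE 0.92, limma adjusted p = 0.999). *Igf1r* was 8.85 ± 5.17 and 12.4 ± 2.45 FPKM, a difference of 0.56 (SE 0.50, limma adjusted p = 0.999). *Igfbp7* had the lowest unadjusted p of the members (117.8 ± 99.6 and 51.5 ± 20.4 FPKM, difference -0.88, SE 0.71), and its limma adjusted p was also 0.999. Leaving out 1 library at a time moved these differences widely. That of *Igf1* was -0.27 without bone 1 and -1.85 without bone 3, that of *Igf1r* was 0.20 without bone 2 and 0.95 without bone 3, that of *Igfbp5* was -0.03 without bone 2 and 1.84 without bone 3, and that of *Igfbp7* was -0.21 without bone 1 and -1.50 without bone 3. 

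The intervals were wide. The 95% interval for *Igf1* ran from -3.03 to 1.15 on the log2 scale and that for *Igfbp6* from -1.85 to 2.83, so that sizeable differences in either direction were not detectable with 3 libraries of such spread. The other differences ran from -0.72 (*Igf2*) and -0.65 (*Igfbp4*) to 0.49 (*Igfbp6*), with an estimate below 0 for 5 members and above 0 for 5. Their median was -0.14, beside 0.12 for all genes tested. Scaling to named genes moved the median of all genes to -0.03.

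**Figure D4:**
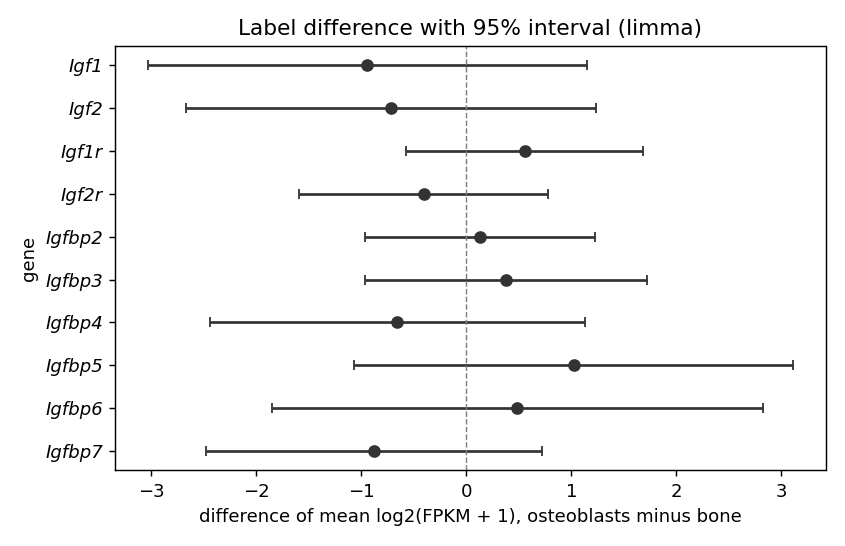
Difference of the mean log2(FPKM + 1), osteoblasts minus bone, for each gene, with its 95% interval from limma. The intervals of all 10 genes include 0, and the estimates range from -0.94 (*Igf1*) to 1.02 (*Igfbp5*).

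The 3 ratios were compared between the labels with exact two-sided permutation tests, which cannot fall below p = 0.1 for 3 against 3. On the log2 scale the ratio of *Igf1* to *Igf2* was 2.00 ± 0.48 in bone and 1.91 ± 0.24 in osteoblasts (SD, n = 3 each, exact p = 0.8). The ratio of *Igf1r* to *Igf2r* was -1.47 ± 1.22 in bone and -0.41 ± 0.84 in osteoblasts (exact p = 0.3). Ligands to IGFBPs were -3.34 ± 1.40 and -3.77 ± 1.3 (exact permutation p = 0.8). Adjusted over the 3 ratios, each exact p was 0.8. The difference in each was smaller than the SD within bone.

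Other genes of the pathway were taken from lists of 49 genes, of which 46 could be read (7 of them by position, among them *Ptpn1*, *Akt1*, *Foxo3* and *Ghr*) and 35 reached a mean of 1 FPKM. limma passed 0 of the 35 in either direction, and 0 had values that did not overlap between the labels. Along *Hbb-bt*, 7 of the 35 had all values higher above 1000 FPKM and 11 had all values lower, and 17 overlapped, beside 38.4% and 16.9% of all genes. After scaling to named genes 3 were higher (*Stc2*, *Foxo3* and *Stat5a*), 25 were lower and 7 overlapped, beside 21.3% and 48.6% of all genes, so these counts depended on the scale. *Pdpk1*, the kinase that activates AKT and named after its values were seen, went from all higher by FPKM (12.3 to 13.7 against 6.25 to 12.1) to all lower (8.58 to 9.71 against 10.7 to 12.4).

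Of the carriers and proteases, 7 of 10 were tested. By FPKM 1 was all higher above 1000 FPKM of *Hbb-bt*, 3 were all lower and 3 overlapped, beside 38.4% higher and 16.9% lower of all genes. After scaling to named genes 1 was higher, 5 were lower and 1 overlapped, beside 21.3% and 48.6% of all genes. *Pappa*, the protease that cleaves IGFBP-4, measured 35.5, 13.5 and 3.91 FPKM in bone 1 to 3 and 17.6, 3.24 and 3.64 FPKM in osteoblasts 1 to 3. Like *Igf1*, it was low in the 3 libraries above 1000 FPKM of *Hbb-bt*, and a link between them was not tested. *Stc1*, whose product stanniocalcin inhibits PAPP-A, measured 8.87, 2.75 and 0 FPKM in bone 1 to 3 and 3.22, 0.0905 and 0.0682 FPKM in osteoblasts 1 to 3. Where *Hbb-bt* was high its values were under the floor given for a 1 kb transcript, and a longer transcript has a lower floor. *Htra1*, a secreted protease known to cleave IGFBPs, showed no such order by FPKM, at 7.91 to 16.1 FPKM, but after scaling to named genes it too was lower above the threshold (7.43 to 11.2 against 13.6 to 16.1). *Igfbp1* and *Igfbpl1* were listed at 0 in all 6 libraries, as were *Ins1*, *Ins2*, *Irs4* and *Igf2os*.

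The insulin receptor gene *Insr* measured 8.19, 4.38 and 15.1 FPKM in bone 1 to 3 and 6.02, 11.6 and 12.6 FPKM in osteoblasts 1 to 3, high where *Igf1r* was high. Scaled to named genes its values overlapped, at 8.22 to 10.5 above the threshold and 7.51 to 9.40 below it. Its relative *Insrr* was at most 0.0190 FPKM.

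Of the adaptors that couple these receptors to their pathways, 9 of 10 were tested, and 3 had all values lower and 1 all values higher where *Hbb-bt* was above 1000 FPKM, beside 16.9% and 38.4% of all genes. After scaling to named genes 6 were lower and 0 higher, beside 48.6% and 21.3%. *Grb14*, an inhibitory adaptor, varied most, with 25.5, 11.2 and 2.29 FPKM in bone 1 to 3 and 16.9, 2.75 and 2.74 FPKM in osteoblasts 1 to 3. *Irs1*, the docking protein for both receptors, was picked out after its values were seen, and measured 43.1, 16.2 and 6.40 FPKM in bone 1 to 3 and 31.2, 4.89 and 4.70 FPKM in osteoblasts 1 to 3. *Shc1*, an adaptor to the Ras pathway, was the most abundant, at 31.2 to 73.7 FPKM, and like *Ptpn1*, a phosphatase of the insulin receptor at 17.2 to 36.7 FPKM, it overlapped across *Hbb-bt* by FPKM. After scaling to named genes both were lower above the threshold (28.8 to 29.7 against 53.4 to 75.5 for *Shc1*).

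Of the genes of the PI3K and AKT branch, 12 of 14 were tested. By FPKM 3 were all higher above 1000 FPKM of *Hbb-bt*, 1 all lower and 8 overlapping, beside 38.4% higher and 16.9% lower of all genes. After scaling to named genes 1 was higher, 9 were lower and 2 overlapped, beside 21.3% and 48.6% of all genes. *Akt1*, a central kinase, was the most abundant, at 47.5 to 105.9 FPKM, and its values overlapped by FPKM, while after scaling to named genes they were lower above the threshold (49.2 to 59.4 against 81.3 to 108.5). *Foxo3*, a transcription factor that AKT holds out of the nucleus, measured 23.9, 11.7 and 50.7 FPKM in bone 1 to 3 and 15.3, 53.0 and 51.4 FPKM in osteoblasts 1 to 3, and was separated on the scale of named genes as well (35.3 to 38.0 above the threshold against 20.0 to 24.5 below).

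In the growth hormone axis, which drives *Igf1* in liver and bone, 4 of 6 genes were tested. By FPKM 1 was all higher above 1000 FPKM of *Hbb-bt*, 2 were all lower and 1 overlapped, beside 38.4% higher and 16.9% lower of all genes. After scaling to named genes 1 was higher and 3 were lower, beside 21.3% and 48.6% of all genes. *Ghr*, the growth hormone receptor gene, measured 65.0, 19.7 and 4.74 FPKM in bone 1 to 3 and 36.6, 5.74 and 7.02 FPKM in osteoblasts 1 to 3. Both *Ghr* and *Igf1* were high in the libraries below 1000 FPKM of *Hbb-bt*, and a link between them was not tested. *Stat5a*, which carries the signal of this receptor to the nucleus, ran the other way, at 13.0 to 18.9 FPKM above 1000 FPKM of *Hbb-bt* and 4.6 to 6.99 FPKM below it, also after scaling to named genes (9.19 to 14.0 against 7.16 to 8.37). Near *Igf2*, the imprinted noncoding RNA gene *H19* measured 36.9, 8.81 and 7.31 FPKM in bone 1 to 3 and 11.7, 3.69 and 3.60 FPKM in osteoblasts 1 to 3. *Igf2bp2*, which encodes a protein that binds IGF2 mRNA, measured 3.58 to 7.42 FPKM in the libraries below the threshold and 0.204 to 0.856 FPKM in those above it.

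**Figure D5:**
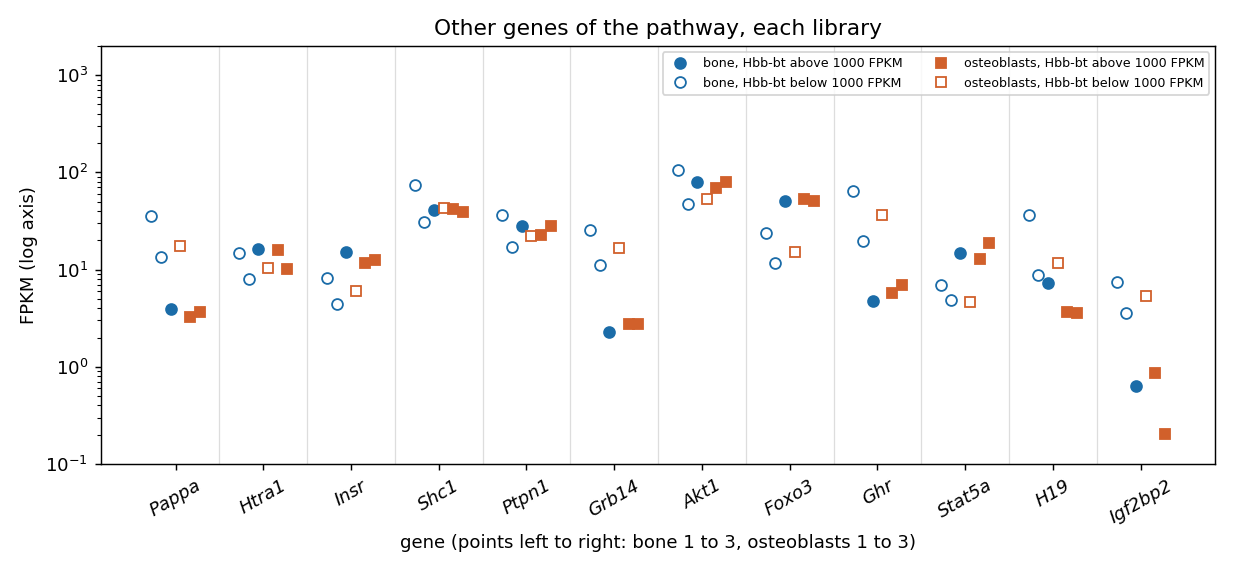
FPKM of 12 other genes of the pathway on a log axis, with a point for each library, circles for bone and squares for osteoblasts, filled where *Hbb-bt* was above 1000 FPKM. *Pappa*, *Grb14*, *Ghr* and *Igf2bp2* are lower in the filled libraries, *Foxo3* and *Stat5a* are higher, and *Akt1*, *Shc1*, *Ptpn1* and *Htra1* overlap on this scale but are lower after scaling to named genes.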

How the data were processed

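RNA was sequenced from 3 libraries labelled bone and 3 labelled osteoblasts. The authors mapped paired reads of 75 bp with HISAT2 2.0.5 (GRCm38) and computed expression with StringTie 1.3.3, and the submitters' processing notes also name SAMtools 1.7. The authors deposited FPKM, TPM and mean coverage for each feature and library, with no counts. The deposited FPKM are scaled to all aligned fragments, the deposited TPM were brought to a common sum per library, and the deposited coverage is not scaled to depth. StringTie joined some genes into features without a name, so 3 members and 7 other genes were read by position from RefSeq of GRCm38.p6, the same build. *Pik3ca*, *Pik3cb* and *Stat5b* had no such feature and were not analysed here.

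Rows sharing a name were summed. Depth was taken from the modal quotient of coverage and FPKM. The 12122 genes whose mean reached 1 FPKM were compared with limma 3.58.1 (R 4.3.3, with a trend) on log2(FPKM + 1), calling a Benjamini-Hochberg adjusted p under 0.05. limma was tested before use on simulated data with less spread than these libraries, where the median SD within a label was 0.591 (log2). That test is no measure of power here. Ratios were compared with exact permutation tests (Python 3.11.15, numpy 2.4.6, pandas 2.3.3). Genes named are the 10 members and, from each list, the 2 with the highest mean and the 1 with the widest range. *Irs1*, *Pdpk1* and *Stc2* fall outside this rule and were named after their values were seen, and other genes appear only as markers, neighbours or genes listed at 0. The members and lists were chosen with earlier results of these data known. Whether the replicate numbers pair libraries of the same mouse could not be decided. Same-numbered libraries correlated at 0.84, -0.75 and 0.83 in their deviations from the label means across genes. Bone 2 with osteoblasts 1 reached 0.8, and bone 3 with osteoblasts 2 reached 0.83. Every correlation was positive within a side of the *Hbb-bt* threshold and negative across it, whatever the numbers. The check thus followed that split and cannot show shared mice. Alternatives were another pseudocount (0.1 or 0.01), other filters, TPM, scaling to named genes or the 75th percentile, no trend, a replicate block and leaving out each library. Coverage per Gb and named features only were added after seeing the data.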

Additional observations from a re-analysis of the deposited data

How the results depend on the processing

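No member passed the threshold of limma under any of the 167 combinations of gene and alternative. The estimate changed sign in 8 of these, each by leaving out 1 library, and the cause was not tested. Over these omissions the log2 difference ranged from -1.47 to 0.0736 for *Igf2* (above 0 without bone 1), from -0.109 to 0.445 for *Igfbp2* (below 0 without bone 2, at -0.086, and without osteoblasts 1), from -0.254 to 0.918 for *Igfbp3* (below 0 without bone 2), from -1.24 to 0.197 for *Igfbp4* (above 0 without bone 1), from -0.0253 to 1.84 for *Igfbp5* (below 0 without bone 2) and from -0.147 to 1.54 for *Igfbp6* (below 0 without bone 1, at -0.129, and without osteoblasts 2). *Igf1* (-1.85 to -0.271), *Igf1r* (0.201 to 0.953), *Igf2r* (-0.689 to -0.031) and *Igfbp7* (-1.5 to -0.215) kept their sign. The number of genes called by limma over all genes was 0 as reported and ranged from 0 to 299 when a library was left out, with 83 without bone 3 and 299 without osteoblasts 1. With the replicate block it was 49. None of these calls was a member. The log2 ratio of *Igf1* to *Igf2* (osteoblasts minus bone, -0.0895) ranged from -0.325 to 0.157 (above 0 without bone 2), and that of ligands to IGFBPs (-0.425) from -1.17 to 0.224 (above 0 without bone 2, and at 0.0787 without osteoblasts 2). The settings other than these omissions kept the direction of the 3 ratios. Named features only was run for ligands to IGFBPs alone. It compared *Igf2* with the IGFBPs other than *Igfbp4* (-0.424), which is a different ratio. Single FPKM values without counts have no interval, and 3 libraries a label limit the precision.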
